A study of Mus musculus with 4 samples.

Results

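Type I interferon-stimulated genes are the genes that cells switch on after interferon alpha or beta binds its receptor, and 44 of them, the chains of that receptor included, are described here in mouse blood stem and progenitor cells with and without the Ncstn gene. The list was set by gene symbol. On the array, 42 of the 44 had a probe set that names them alone, and each gene was read from its probe set with the highest mean log2 intensity over the 4 arrays, among 18193 genes in all. The only probe set for Isg15 is shared with Gm9706 and is given separately, and Ifi44 was not analysed here. The members were grouped as sensors of viral RNA or DNA (4), oligoadenylate synthetases (5), antiviral effectors (13), interferon-inducible GTPases (4), ubiquitin-like and ADP-ribosylation genes (7), antigen processing genes (3), the chemokine gene Cxcl10, other interferon-stimulated genes (5) and receptor chains (2).

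The RNA came from bone marrow cells without lineage markers that carry cKit and Sca1 (LSK cells, which hold the stem cells and multipotent progenitors of blood). There were 2 WT mice, of genotype Ncstn flox/flox, and 2 Ncstn KO littermates, of genotype Ncstn flox/flox Mx1-cre+, with 1 male and 1 female in each group and 1 array per mouse. Mice of both groups were given polyIC, a synthetic double-stranded RNA that induces interferon, 3 times at 20 mcg per g of body weight from 14 days of age, and their cells were collected 4 weeks later at 6 weeks of age. Nicastrin, the product of Ncstn, belongs to gamma-secretase, the protease that releases the active part of Notch receptors. The cre recombinase stands under the promoter of Mx1, itself an interferon-stimulated gene. That promoter responds to interferon in many cell types and is not limited to blood cells. Only the Ncstn KO mice carried the transgene, so loss of Ncstn and presence of the transgene cannot be told apart. No group without polyIC was among the samples, so the values are not changes upon interferon.

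Type I interferons bind a receptor made of the Ifnar1 and Ifnar2 chains, and the kinases Jak1 and Tyk2 then act through a complex that holds Stat2 and Irf9 and binds a DNA element called the interferon-stimulated response element (ISRE). The genes with this element encode sensors of foreign nucleic acid, enzymes that degrade or edit RNA, proteins that block virus entry or release, and feedback inhibitors such as Usp18. In blood stem cells interferon is known to end dormancy for a time, and Sca1, one of the markers used for sorting, is itself induced by interferon.

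In WT the brighter Ncstn probe set stood at a log2 intensity of 9.05 (replicate 1) and 8.98 (replicate 2), and in Ncstn KO at 7.58 and 7.91. A second, dimmer one read 6.81 and 6.79 against 5.86 and 7.09, so that Ncstn KO replicate 2 was not below WT there. Whether either probe set covers the deleted exons is not stated in the labels. The stem and progenitor markers Kit (11.57 to 11.94), Cd34 (12.77 to 12.81) and Flt3 (12.36 to 12.66) gave signal on the 4 arrays, and Ly6a, which encodes Sca1, was not analysed here. Genes of mature cells gave signal too, among them the neutrophil gene S100a9 (13.80 to 13.92) and the NK cell gene Nkg7 (12.65 to 12.75). The other measured T and NK cell genes read lower, with the NK receptor gene Ncr1 at 4.05 to 4.69. Which cells gave these signals was not tested. Median intensities ran from 71.6 to 79.2. The hybridization controls, bacterial and phage transcripts, averaged 0.195 more (log2) on the Ncstn KO arrays. They include probe sets for cre, and only the Ncstn KO mice carried a cre transgene. Whether these probe sets read the transgene was not tested, so scaling to the controls may not be neutral to genotype. Every change below is a log2 difference, the Ncstn KO mean less the WT mean of 2 arrays each, with its standard error (SE) from limma. Array values are listed as replicate 1 and replicate 2 of a group.

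Interferon-stimulated genes were lower in Ncstn KO LSK cells for most of the list, by amounts that differed between functional groups. Of the 42 measured members 32 (76.2%) had a mean below WT, against 44.2% of all genes, and 24 (57.1%) had separate lower arrays, meaning that the higher Ncstn KO value lay under the lower WT value, against 12.8% of all genes. Separate higher arrays were found for 4 members, Samhd1, Gbp3, Tap1 and Ifnar2, against 21.3% of all genes, and the last 3 turned sign when arrays were scaled to the hybridization controls, which moved the median of all genes to -0.17. With that scaling 40 members lay below WT, against 78.6% of all genes. The oligoadenylate synthetases had the lowest median of the groups with more than 1 gene, -1.17, followed by antiviral effectors at -0.44, other interferon-stimulated genes at -0.41 and sensors at -0.35. Ubiquitin-like and ADP-ribosylation genes had a median of -0.12, GTPases of -0.05, antigen processing genes of -0.04 and the receptor chains of 0.09. The groups also differed in brightness. The mean log2 intensity on the WT arrays was 8.90 and 8.70 for the oligoadenylate synthetases and 12.02 and 12.16 for antigen processing genes. The other interferon-stimulated genes were bright as well, at 11.50 and 11.63. Whether brightness bears on the size of a change was not tested.

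No member passed the limma test over all 18193 genes at an adjusted p under 0.05, a threshold that 0% of all genes passed. At an unadjusted p under 0.05, 16 members (38.1%) were lower, against 1.84% of all genes, and 1 was higher, against 4.96%. A difference of at least 2-fold with separate arrays was found downward for 7 members (16.7%), against 0.517% of all genes, and upward for 0, against 1.19%. These 7 were Oas2, Oas3, Oasl1, Oasl2, Mx1, Rtp4 and Usp18. The median over the members was -0.25, against 0.02 over all genes. For 1 gene with 2 arrays per group the smallest p of an exact permutation test (two-sided) is 0.333. In bulk RNA, fewer cells of a type and less RNA per cell cannot be told apart. The count of 16 became 6 without WT replicate 1, where the share of all genes was 0.923%, and the count of 7 became 3 without Ncstn KO replicate 2.

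**Figure D1:**
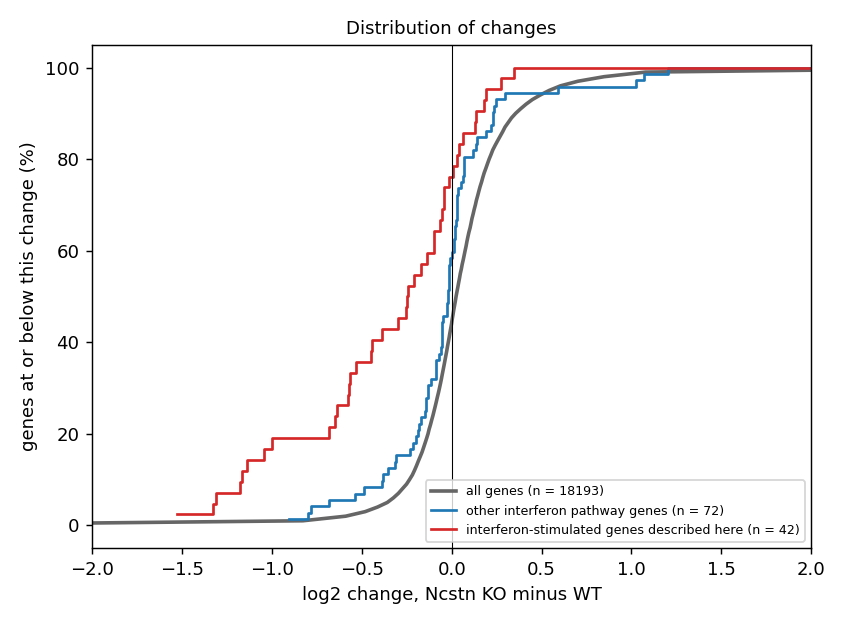
Cumulative share of genes (%) at or below a given log2 change, Ncstn KO minus WT, for the 42 members (red), 72 other genes of the interferon pathway (blue) and all 18193 genes (grey). The red curve lies left of the grey one, with medians of -0.25 and 0.02, and the blue curve, with a median of -0.02, lies between them over most of its lower range.

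The proximal promoters show how far the members share the element through which interferon acts. RefSeq windows (GRCm38.p6, 250 bases before to 50 after a start site) were found for 35 of the 44 members and were searched on both strands for the ISRE core, taken as GAAA and GAAA with any 2 bases between them (TTTC and TTTC on the other strand). The core was in a window of 16 members, against 3.44% of all 32851 windows and 3.99% of all genes with a window. The stretches below are shown because they hold the core before the start site in members with separate lower arrays on the probe set used (Ifit1, Oas1a, Oas3, Rsad2), in Isg15, whose shared probe set was lower, and in members without separate lower arrays (Gbp2, Gbp3, Cxcl10). They run 5′ to 3′ on the gene's strand with the core in capitals.
Ifit1, chr19:34640769-34640828, plus strand: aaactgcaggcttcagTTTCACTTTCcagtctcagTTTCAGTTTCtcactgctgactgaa
Oas1a, chr5:120907526-120907585, minus strand: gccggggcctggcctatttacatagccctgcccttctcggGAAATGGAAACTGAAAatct
Oas3, chr5:120777710-120777769, minus strand: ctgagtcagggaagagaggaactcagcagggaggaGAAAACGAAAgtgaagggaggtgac
Rsad2, chr12:26456548-26456607, minus strand: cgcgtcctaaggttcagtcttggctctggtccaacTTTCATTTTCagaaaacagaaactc
Isg15, chr4:156200860-156200919, minus strand: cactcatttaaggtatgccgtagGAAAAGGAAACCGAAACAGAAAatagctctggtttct
Gbp2, chr3:142620569-142620628, plus strand: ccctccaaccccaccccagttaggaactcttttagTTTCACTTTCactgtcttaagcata
Gbp3, chr3:142559970-142560029, plus strand: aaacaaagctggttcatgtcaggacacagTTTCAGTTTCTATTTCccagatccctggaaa
Cxcl10, chr5:92349078-92349137, minus strand: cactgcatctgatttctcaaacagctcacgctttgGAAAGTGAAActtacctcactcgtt
Ifit1 held 2 copies of the core, Isg15 held 3 overlapping ones, and Oas1a and Gbp3 held 2 overlapping ones each.

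Among measured members with a window, the 15 that held the core had a median change of -0.30, from -1.14 to 0.28, and 10 of them had separate lower arrays. The 18 without it had a median of -0.05, from -1.53 to 0.35, and 7 had separate lower arrays. Oasl2 and Oasl1, at -1.53 and -1.18, were among those without a match in their window. A second motif, TTCNNNGAA with N for any base, was searched too and was found for 9.55% of all genes with a window. The 12 measured members that held it had a median of -0.07, and 5 had separate lower arrays. The 21 without it had a median of -0.25, and 12 had separate lower arrays. For this motif the members without it were thus the lower ones. These counts describe the letters in the windows, and no test was made of them. The 9 members without a window were Zbp1, Oas2, Mx1, Mx2, Rtp4, Usp18, Parp9, Parp14 and Ifi27, and they are in none of these groups. Among them, Oas2, Mx1, Rtp4 and Usp18 were at least 2-fold lower, so the medians leave out some of the largest changes.

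Among the sensors, Ifih1 and Eif2ak2 had the larger differences. Ifih1, the cytoplasmic sensor of long double-stranded RNA such as polyIC, read 9.71 and 9.68 in WT and 9.14 and 9.11 in Ncstn KO. Replicates lay close together and the groups did not overlap, with a change of -0.57 (SE 0.16, limma adjusted p = 0.544). Eif2ak2, the kinase that stops translation on binding double-stranded RNA, read 11.16 and 10.97 in WT and 10.68 and 10.56 in Ncstn KO, again separate, with a change of -0.45 (SE 0.13, limma adjusted p = 0.55). Its other 2 probe sets gave -0.58 and -0.43. Ddx58, which encodes the sensor RIG-I, was lower by a smaller amount on separate arrays (-0.25, SE 0.16). Zbp1, a sensor of nucleic acid in the Z form, read 8.20 and 8.59 in WT and 8.32 and 8.06 in Ncstn KO, and its groups overlapped. Its second probe set gave -0.61 on separate arrays.

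The oligoadenylate synthetases are activated by double-stranded RNA and make a messenger that activates RNase L, which degrades RNA, while the Oas-like proteins act in antiviral defence in part without that activity. All 5 measured genes of this family had separate arrays, and 4 of them were at least 2-fold lower. Oas2 read 8.46 and 8.40 in WT against 7.17 and 7.36 in Ncstn KO, a change of -1.17 (SE 0.22, limma adjusted p = 0.295). Oas1a read 10.71 and 10.67 against 10.12 and 9.95, a change of -0.65 (SE 0.14, limma adjusted p = 0.361). Oasl1 read 7.44 and 7.24 against 6.35 and 5.98, a change of -1.18 (SE 0.26, limma adjusted p = 0.387). In these 3 genes the gap between groups was wider than the spread within either.

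The other two were less even between mice. Oas3 read 8.83 and 8.0 in WT against 7.58 and 6.98 in Ncstn KO, a change of -1.14 (SE 0.36), and the spread within WT, 0.59 (SD, n = 2), was the wider one. Oasl2 read 9.05 and 9.19 in WT, 8.65 on Ncstn KO replicate 1 and 6.53 on Ncstn KO replicate 2, a change of -1.53 (SE 0.64, limma adjusted p = 0.757). Its change rested on Ncstn KO replicate 2, being -0.47 without that array and -2.58 without Ncstn KO replicate 1, where it passed (limma adjusted p = 0.0343, against 0.0343 to 1 over its 14 alternatives).

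Antiviral effectors were mixed. Of 13 measured, 8 had separate lower arrays and 1, Samhd1, separate higher ones. Rtp4, a chaperone of receptors that also restricts viruses, had the smallest unadjusted p of the members. It read 10.38 and 10.51 in WT against 9.17 and 9.06 in Ncstn KO, 2.51-fold lower (-1.33, SE 0.16, limma adjusted p = 0.161), and its second probe set gave -1.23. After each array was centred on its median, Rtp4 passed (limma adjusted p = 0.033, against 0.033 to 0.815 over its 14 alternatives).

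Mx1 encodes a dynamin-like GTPase that blocks influenza viruses, and its promoter drives the cre transgene here. It read 7.31 and 7.16 in WT against 5.59 and 6.26 in Ncstn KO, a change of -1.31 (SE 0.31, limma adjusted p = 0.409). The group without the transgene thus had the higher signal. Mx2, near Mx1 in the genome, was dim, at 5.44 and 5.21 against 4.69 and 4.81 (-0.58, SE 0.23), and the table of RefSeq genes lists both as transcribed pseudogenes in the C57BL/6J reference. The sources used here do not name the strain of the mice.

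The Ifit genes, whose proteins bind foreign RNA, differed among themselves. Ifit1 read 8.31 and 8.13 in WT against 7.32 and 7.13 in Ncstn KO (-1.0, SE 0.23, limma adjusted p = 0.401). Ifit3 had a change of -0.44 (SE 0.32) with overlapping arrays, Ncstn KO replicate 1 reading 6.80 between the WT values of 6.75 and 7.08. Ifit2 stood at 10.06 and 10.27 in WT and 10.15 and 10.16 in Ncstn KO, a change of -0.01 (SE 0.15).

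Rsad2, which encodes viperin, an enzyme that makes an antiviral nucleotide, and Cmpk2, a mitochondrial nucleotide kinase gene next to it, were lower on separate arrays. Rsad2 read 8.72 and 8.58 against 7.72 and 8.22 (-0.68, SE 0.25), but a second probe set of Rsad2 gave 0.58 and the mean of its 3 probe sets gave -0.05. Cmpk2 read 8.96 and 8.68 against 8.41 and 8.17 (-0.53, SE 0.22). Bst2, which tethers budding virus to the cell, and Isg20, an exonuclease gene, had separate lower arrays with changes of -0.30 and -0.24. Adar, the RNA editing enzyme, had a change of -0.10 on its brightest probe set and of -0.49 and -1.37 on the others, which disagree in size. Ifitm3, which blocks virus fusion in endosomes, read 13.12 and 13.15 in WT and 13.16 and 13.12 in Ncstn KO, a change of 0.01 (SE 0.06). Samhd1, which depletes the nucleotides viruses need for DNA synthesis, went the other way, at 11.43 and 11.42 against 11.76 and 11.78 (0.35, SE 0.09, limma adjusted p = 0.496). It was the 1 member higher at an unadjusted p under 0.05.

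**Figure D2:**
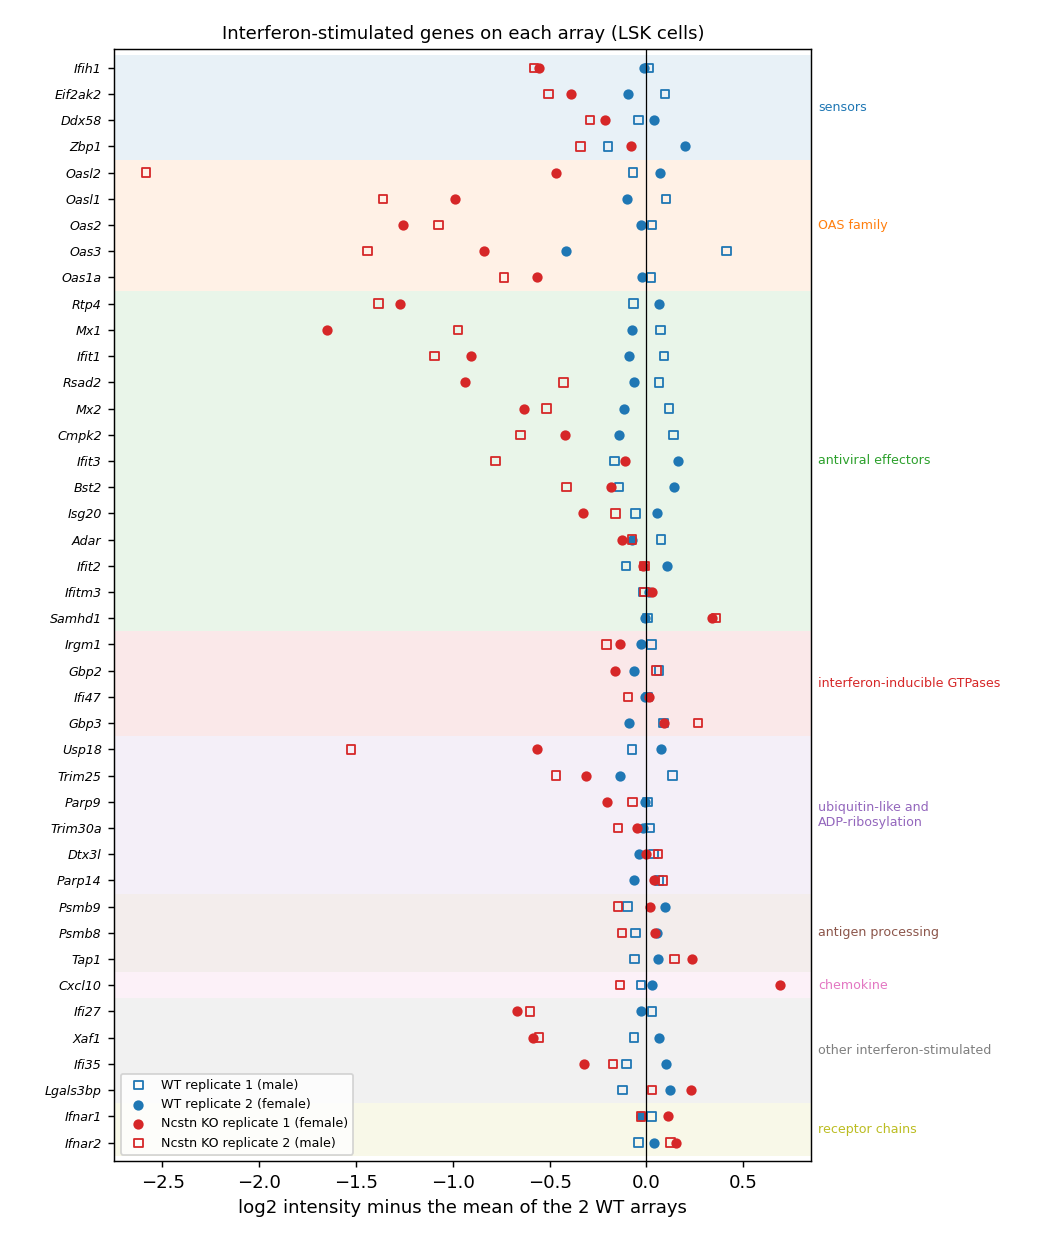
log2 intensity of each of the 42 measured members on each array, minus the mean of the 2 WT arrays of that gene; circles are females, squares are males, blue is WT and red is Ncstn KO. The 5 OAS genes have both red symbols left of both blue ones, and Oasl2 and Usp18 lie farthest left on Ncstn KO replicate 2 (6.53 and 7.57 before subtraction), while Ifitm3 (13.12 to 13.16) shows no separation.

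Among the genes of ubiquitin-like modification, Usp18 had the largest difference. Usp18 removes the ubiquitin-like protein ISG15 from its targets and damps signalling at Ifnar2. It read 9.02 and 9.17 in WT, 8.53 on Ncstn KO replicate 1 and 7.57 on Ncstn KO replicate 2, a change of -1.04 (SE 0.34, limma adjusted p = 0.613), and without Ncstn KO replicate 2 the change was -0.56. The probe set shared by Isg15 and Gm9706 read 8.41 and 8.82 in WT against 7.96 and 7.83 in Ncstn KO, a difference of -0.72 that was not tested. Trim25, a ubiquitin ligase that acts on RIG-I, read 11.67 and 11.40 against 11.23 and 11.07 (-0.39, SE 0.13), with separate arrays.

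The remaining genes of that group stayed near WT. Parp9 and Trim30a had small differences on separate arrays (-0.14 and -0.10, limma adjusted p = 0.962 and 0.945), and a second probe set of Trim30a gave 0.21. Dtx3l, the ubiquitin ligase that pairs with Parp9, read 12.49 and 12.42 in WT against 12.46 and 12.52 in Ncstn KO. Parp14, an ADP-ribosyltransferase gene, had a change of 0.06 (SE 0.13), while its second, dimmer probe set gave -0.39 on separate arrays.

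Interferon-inducible GTPases attack vacuoles that hold pathogens and are strongly induced by interferon gamma. The 4 among the members lay near WT, with a median of -0.05. Ifi47 read 12.10 and 12.08 in WT and 12.10 and 12.00 in Ncstn KO. Irgm1 was lower on separate arrays, at 9.91 and 9.86 against 9.75 and 9.68 (-0.17, SE 0.15). Gbp2 had a change of -0.05 (SE 0.15) and Gbp3 of 0.18 (SE 0.14), the latter on separate higher arrays. Outside the members, Gbp6 had a change of -0.90 (SE 0.26, limma adjusted p = 0.548) on separate lower arrays. Gbp7, Igtp, Irgm2 and Iigp1 had overlapping arrays, with changes of -0.05, 0.02, -0.05 and 0.23.

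Antigen processing genes were likewise near WT. Psmb8 and Psmb9, which encode subunits of the immunoproteasome, read 12.35 and 12.46 against 12.45 and 12.28, and 12.21 and 12.41 against 12.33 and 12.17. Their groups overlapped, with changes of -0.04 (SE 0.09) and -0.07 (SE 0.11). Tap1, a subunit of the peptide transporter into the endoplasmic reticulum, read 11.49 and 11.61 against 11.79 and 11.69, a change of 0.19 (SE 0.10), and this sign turned when arrays were scaled to the hybridization controls (-0.0048). Cxcl10, a chemokine for activated T cells, read 6.82 and 6.87 in WT, 7.53 on Ncstn KO replicate 1 and 6.71 on Ncstn KO replicate 2, so that its arrays lay on both sides of WT.

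Of the other interferon-stimulated genes, Ifi27 and Xaf1 were lower with little spread. Ifi27 read 12.18 and 12.12 in WT against 11.48 and 11.55 in Ncstn KO (-0.64, SE 0.09, limma adjusted p = 0.196), and its second probe set gave -0.74. Xaf1, a promoter of apoptosis, read 11.08 and 11.21 against 10.56 and 10.59 (-0.57, SE 0.12, limma adjusted p = 0.352), and its second probe set also gave -0.57. Ifi35 read 11.90 and 12.10 against 11.67 and 11.83, with separate arrays, while its 3 probe sets ranged from -0.25 to 0.20. Lgals3bp, a secreted glycoprotein gene, read 10.86 and 11.11 against 11.22 and 11.01, which overlap.

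The receptor chains lay at or above their WT levels. Ifnar1 read 10.72 and 10.67 in WT against 10.81 and 10.66 in Ncstn KO, a change of 0.04 (SE 0.12). Ifnar2 read 11.04 and 11.12 against 11.23 and 11.20, a change of 0.14 (SE 0.11) on separate higher arrays, and both signs turned when arrays were scaled to the hybridization controls (-0.15 and -0.06).

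**Figure D3:**
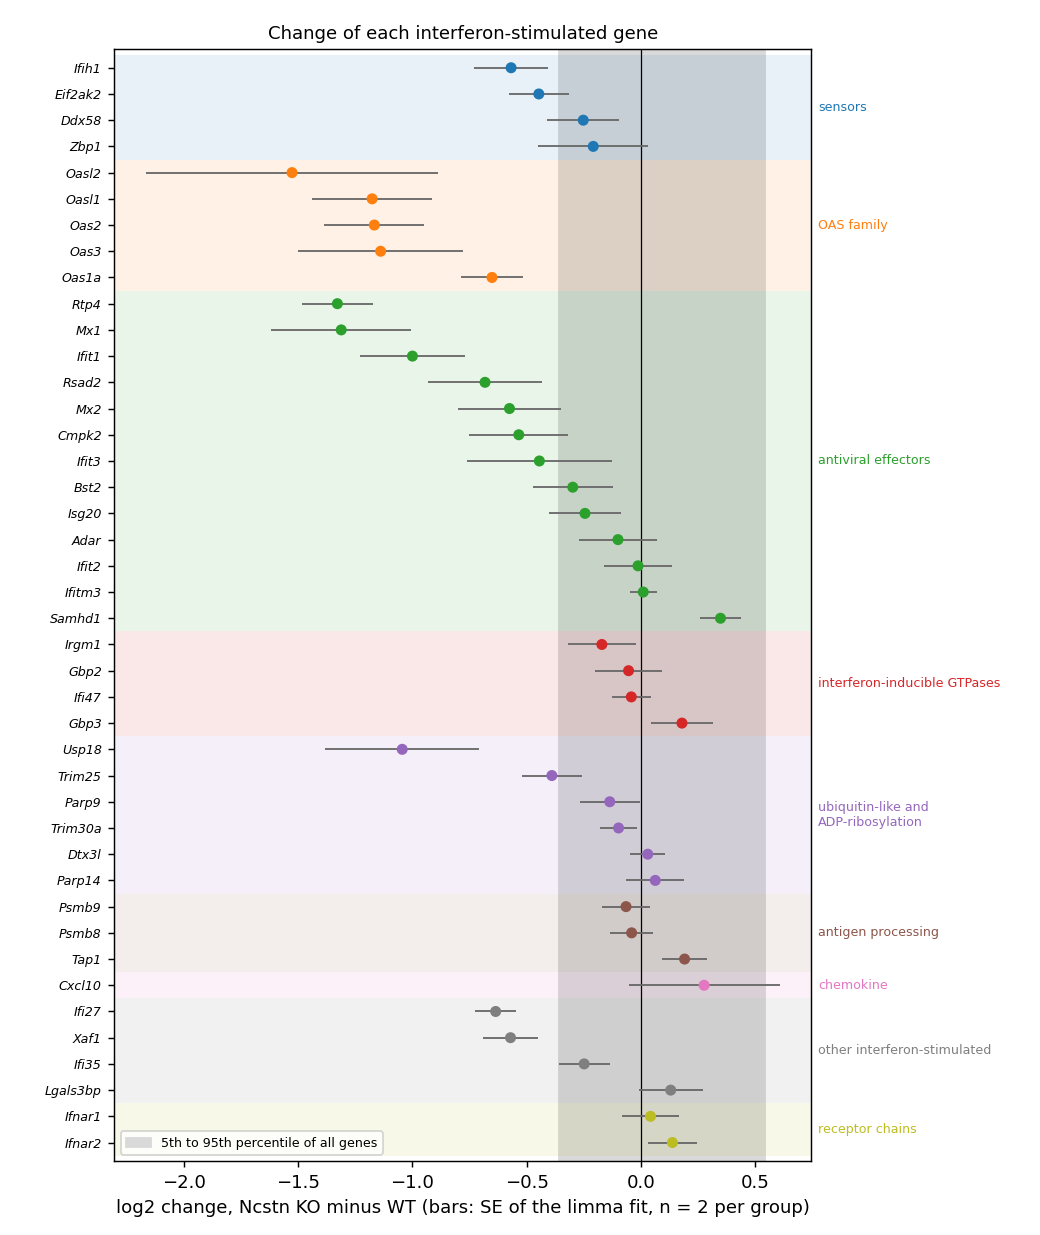
log2 change, Ncstn KO minus WT, of the 42 measured members by functional group, with bars for the SE of the limma fit (n = 2 per group); the grey band spans the 5th to 95th percentile of all genes (-0.36 to 0.54). The OAS genes, Rtp4, Mx1, Ifit1 and Usp18 lie far left of the band, while the GTPases, antigen processing genes and receptor chains lie within it.

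Neighbouring members were not always alike. The RefSeq gene order was taken over protein-coding genes and the members only. In it 24 of the 44 members lay in 10 clusters with at most 10 such genes between one member and the next. Adjacent members have no such gene between them. The adjacent pair Oasl2 and Oasl1 (-1.53 and -1.18) and the cluster of Oas2, Oas3 and Oas1a (-1.17, -1.14 and -0.65) were low throughout. In the adjacent pair Rsad2 and Cmpk2 (-0.68 and -0.53) the first value rests on the chosen probe set. The adjacent trio Parp14, Dtx3l and Parp9 (0.06, 0.03 and -0.14) and the adjacent trio Psmb9, Tap1 and Psmb8 (-0.07, 0.19 and -0.04) stayed near WT. Within the Ifit cluster the changes spread from -0.01 for Ifit2 through -0.44 for Ifit3 to -1.0 for Ifit1. Where several probe sets were present for a member, as for 20 members, all pointed the same way in 12.

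Each sex gave 1 Ncstn KO and 1 WT array. In both of these pairs together 30 members (71.4%) were lower in Ncstn KO, against 22.7% of all genes. In both pairs 8 (19.0%) were higher, against 32.3%. The 24 members with separate lower arrays are lower in both pairs by definition, so the count of 30 largely repeats that one. The members' median was -0.26 for females and -0.20 for males. Even across sex, with the female pair first, were Rtp4 (-1.34 and -1.32), Ifi27 (-0.64 and -0.63) and Ifih1 (-0.54 and -0.59). The OAS family was less even, with a median of -0.54 for females and -1.46 for males. Oasl2 differed by -0.54 and -2.52 and Oas3 by -0.42 and -1.85, whereas Oas2 differed by -1.23 and -1.10. Mx1 was lower by more in the female pair (-1.58) than in the male pair (-1.05). With 1 array per sex and genotype, a difference between the sexes in the change could not be tested.

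Between the sexes, in a fit that also held genotype, 0 of 42 members passed limma at an adjusted p under 0.05, as did 0.022% of all genes. At an unadjusted p under 0.05, 1 member was higher in females, against 5.53% of all genes, and 0 were higher in males, against 3.05%. This was Psmb9, at a mean of 12.37 in females and 12.19 in males (limma adjusted p = 0.574).

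**Figure D4:**
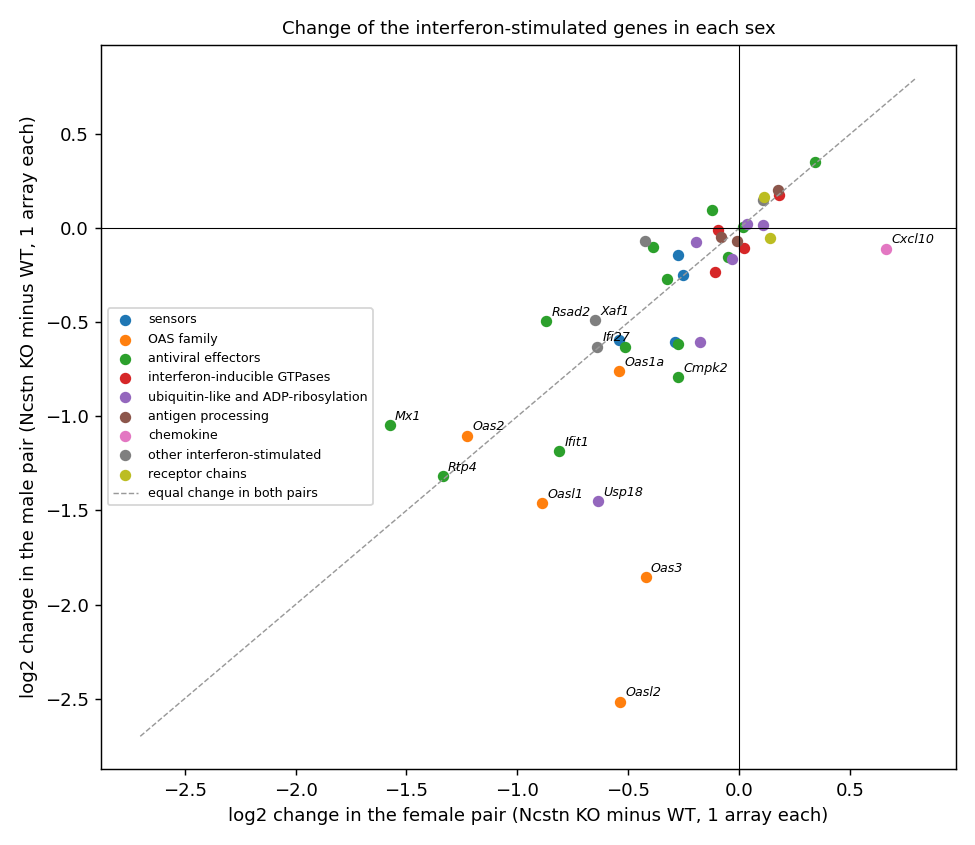
log2 change of each member in the female pair (x axis) and in the male pair (y axis), Ncstn KO minus WT with 1 array each, coloured by functional group; the dashed line marks equal change. Rtp4 lies on the line at -1.34 and -1.32, Oasl2 (-0.54 and -2.52) and Oas3 (-0.42 and -1.85) lie far below it, and Cxcl10 (0.66 and -0.11) lies apart on the right.

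Other genes of the pathway showed a smaller displacement. Of 86 listed and 72 measured, 42 (58.3%) had a mean below WT, against 44.2% of all genes, and 0 passed limma over all genes. At an unadjusted p under 0.05, 3 were lower, against 1.84% of all genes, and 4 higher, against 4.96%. The interferon genes themselves were dim and had a median of -0.01 over 6 measured. Ifnb1, which encodes interferon beta, read 3.83 and 3.94 in WT and 4.37 and 3.99 in Ncstn KO, Ifna2 had a change of -0.15 (SE 0.12) and Ifng, the interferon gamma gene, of -0.06 (SE 0.23). Signal over background was not assessed, so these readings may not reflect transcripts.

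Among 12 signal transducers and feedback genes, 6 were below WT and the median was 0.0009. Irf9, the DNA-binding subunit of the factor that recognises the ISRE, read 10.39 and 10.45 in WT against 9.89 and 9.98 in Ncstn KO (-0.49, SE 0.14, limma adjusted p = 0.544). Irf7, a transcription factor that amplifies interferon production, had a change of -0.39 (SE 0.26) and read 8.18 on Ncstn KO replicate 2, near WT at 8.26 and 8.32, so that the change was -0.11 without Ncstn KO replicate 1 and -0.67 without Ncstn KO replicate 2. Stat2 had a change of -0.12 (SE 0.26), which was 0.02 as the mean of its 2 probe sets. Socs3, a feedback inhibitor of cytokine receptors, was higher on separate arrays, at 9.69 and 9.93 against 10.89 and 11.13 (1.20, SE 0.16, limma adjusted p = 0.192, and 0.0327 after median centring, where it passed, the lowest of its 14 alternatives).

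The sensing adaptors had a median of 0.03 over 12 measured. Dhx58, a relative of RIG-I and itself interferon-stimulated, had a change of -0.54 (SE 0.26), which was -0.18 as the mean of its 3 probe sets, -0.24 without Ncstn KO replicate 1 and -0.83 without Ncstn KO replicate 2. This stands beside 0.23 (SE 0.16) for the adaptor Myd88 and 0.25 (SE 0.17) for the ubiquitin ligase Traf6. Of 33 further interferon-stimulated genes 22 were below WT and the median was -0.07. Separate lower arrays were found for 14 (42.4%), against 12.8% of all genes, and separate higher ones for 4 (12.1%), against 21.3%. Ifi27l2a read 10.44 and 10.58 in WT against 9.85 and 9.61 in Ncstn KO (-0.78, SE 0.16). The Schlafen genes Slfn2 and Slfn1, regulators of immune cell growth, were higher by 1.07 (SE 0.21) and 1.03 (SE 0.26), each on separate arrays, and neither passed. As the mean of its probe sets Slfn1 gave 0.57. The antigen presentation genes beyond the members had a median of -0.02 over 9 measured, with changes of -0.14 for Pdia3 (-0.54 as the mean of its probe sets), 0.07 for Calr and -0.05 for Canx.

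Markers of other cells also differed in level between the groups, and none passed limma over all genes. For comparison, 10150 of all 18193 genes were above WT, 21.3% had separate higher arrays and 32.3% were above WT in both sexes. Granulocyte-macrophage progenitor genes were above WT for 6 of 6 measured, 5 with separate arrays, with a summed intensity of 26357.5 and 27738.7 in WT against 40384.3 and 39458.1 in Ncstn KO. Ms4a3, Elane and Prtn3 had changes of 1.35, 1.19 and 0.75. Basophil and mast cell genes were above WT for 4 of 4, all with separate arrays, and summed to 1777.5 and 1865.8 in WT against 4525.2 and 3888.3 in Ncstn KO, with changes of 1.03 for Mcpt8, 1.10 for Cpa3 and 1.54 for Ms4a2. Mature neutrophil and monocyte genes were above WT for 11 of 11, and 9 (81.8%) were above WT in both sexes. Separate higher arrays were found for 5 (45.5%), F13a1, Hp, Ccr2, Cxcr2 and Cd14. The other 6, Lcn2, Ltf, S100a8, Camp, Ngp and S100a9, overlapped, with changes from 0.01 to 0.44. Sums over the 11 genes were higher in Ncstn KO within each sex, at 44318.3 against 52490.7 for females and 55530.2 against 67610.1 for males. F13a1, Hp and Ccr2 had changes of 1.64, 1.19 and 1.5. Dendritic and plasmacytoid dendritic cell genes, markers of a source of interferon, were above WT for 5 of 8, near the share of all genes, and these 5 (62.5%) in each sex. Itgax (-0.004), Xcr1 (-0.07) and Cd209d (-0.13) were below WT. The list summed to 12376.1 in WT against 16611.6 in Ncstn KO for females and 6610 against 7173.6 for males. Its brightest genes, Cd74, H2-Aa and H2-Ab1, were 1.20, 1.36 and 0.71 higher in females than in males. Their changes between genotypes were 0.28, 0.24 and 0.31. Ccr9, Siglech and H2-Ab1 had changes of 0.45, 0.38 and 0.31.

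In the remaining marker lists single genes lay far from WT in either direction, whatever the median of the list, and none passed. B cell genes had a median change of 0.01 over 7 measured. Ms4a1, which encodes CD20, had a change of -2.12 (SE 0.24, separate arrays, limma adjusted p = 0.161), Ebf1 of -1.15 and Pax5 of 0.39. The arrays of Ebf1 overlapped, at 9.02 and 8.60 in WT against 6.60 and 8.72 in Ncstn KO. Its change was -0.09 without Ncstn KO replicate 1. T and NK cell genes had a median of -0.15 over 8, with -2.13 for the granzyme gene Gzma on separate arrays (SE 0.70), 0.59 for Cd4 and -0.38 for Cd3d. Endothelial and stromal genes had a median of -0.04 over 7, with -1.40 for Emcn (SE 0.18, limma adjusted p = 0.192), -2.17 for Cxcl12 (SE 0.93) and 0.48 for Pecam1, each on separate arrays, and their sums were 1652.1 and 1805.1 in WT against 914.8 and 1248.4 in Ncstn KO. Gzma and Cxcl12 rested largely on Ncstn KO replicate 1, being -0.99 and -0.60 without it. Without Ncstn KO replicate 2 they passed (limma adjusted p = 0.0282 and 0.0192, the lowest over 13 alternatives each). Megakaryocyte and erythroid genes had a median of 0.41 over 8, with 1.33 for Itga2b and, on separate lower arrays, -1.30 for Alas2 and -1.05 for Slc4a1. The stem cell and gate genes had a median of -0.03 over 10, with 0.83 for Slamf1 on separate arrays, -0.45 for Tek and -0.10 for Cd48. The arrays of Tek overlapped, with a difference of 0.06 in the female pair and -0.97 in the male pair. Slamf1 differed by 1.43 in the female pair and 0.23 in the male pair. The part of any of these cell types in the lower interferon-stimulated genes was not tested.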

How the data were processed

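RNA of 4 mice was measured on 1 Affymetrix array each. The authors deposited linear intensities, 1 per probe set, made with RMA per the submitters' processing notes; the sources used here do not name its software or version. Per the labels' protocols, amplification started from 5 ng of RNA with biotin labelling of the cDNA. Here log2 was taken with no further scaling, 64 control probe sets of 45101 were left out, and each gene took its probe set with the highest mean. GEO's platform annotation, dated 2016, named 1 gene for 34945 probe sets, several for 932 and none for 9160. Detection above background could not be judged from these values, and levels of different probe sets are not comparable.

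Tests used limma 3.58.1 under R 4.3.3: lmFit, then eBayes with trend, two-sided, adjusted by Benjamini-Hochberg over 18193 genes, with genotype as the term. Sex was tested in a second fit beside genotype. The fit had 2 residual and on average 4.11 prior degrees of freedom, and the steps were tested on simulated data. The number of arrays limits the precision. In the genotype fit, p-values rest on the spread within a group, which includes any sex difference, moderated by the variances of all genes. The members and lists were chosen with earlier results of these data known. Array values are given for members with an absolute change of at least 0.5 or an unadjusted p under 0.05, the receptor chains, and the brightest and dimmest member of a group. Ifit2, Ifit3, Psmb9, Lgals3bp and the markers Kit, Cd34, Flt3, S100a9, Nkg7 and Ncr1 were added after their values were seen. Of the pathway and marker lists, the 3 genes with the smallest unadjusted p were named, and Stat2, Irf7 and Irf9 by name. Further genes of the mature neutrophil and dendritic cell lists were named after their values were seen, as were Gbp6, Gbp7, Igtp, Irgm2 and Iigp1. All 44 members matched the RefSeq gene table of GRCm38.p6. Alternatives to scaling, filter, offset, probe set rule, model and replicates were tried. Figures were drawn with matplotlib 3.10.9.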

Additional observations from a re-analysis of the deposited data

Results flagged for a closer look

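For 4 members the Ncstn KO array lay on opposite sides of the WT array in the 2 sexes, and this difference was not tested. The female pair comes first here. Cxcl10 gave 0.66 and -0.11, Ifit2 gave -0.12 and 0.09, Ifnar1 gave 0.14 and -0.05, and Ifi47 gave 0.02 and -0.10. Of these, Cxcl10 alone had a difference above 0.5 in either pair.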

How the results depend on the processing

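There were 14 alternatives, and 27 of the 42 measured members kept their sign in every one run on them. Members below the median level had 13, as the filter on level removed them. In several runs the sign could not turn. Adding sex or a replicate block, dropping the variance trend and filtering on level all leave a member's change as it was. Sex as a covariate and the crossed pairing below are the same fit. In all, 40 members kept their side of the threshold, the exceptions being Rtp4 and Oasl2. Genes called by limma in Ncstn KO against WT, 0 as deposited, numbered 3 after quantile normalization, 62 after median centring and 2 among genes above the median level. Median centring also called 1 member (Rtp4) and 1 other pathway gene (Socs3), and of the named cell type markers Ms4a3 and Elane (limma adjusted p = 0.00936 each), Ms4a1 (0.0274), F13a1 and Hp (0.0327 each), Emcn (0.033), Mcpt8 (0.036) and Ccr2 (0.044). Ms4a3 was also called after quantile normalization (0.0382), above the median level (0.0372) and without Ncstn KO replicate 2 (0.0398). Elane was called without Ncstn KO replicate 1 (0.0343), and F13a1 (0.039), Gzma (0.0282) and Cxcl12 (0.0192) without Ncstn KO replicate 2. Genes called between the sexes, 4 as deposited, became 58, then 2 above the median level and 0 without the variance trend.

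Scaling to the hybridization controls moved the median of all genes to -0.17 and the share of genes with separate lower arrays to 44.6%. It brought the members lower at an unadjusted p under 0.05 to 28, against 13.7% of all genes, and the members' median to -0.44. Medians became -0.55 for sensors, -0.64 for effectors, -0.24 for GTPases, -0.31 for ubiquitin-like genes, -0.24 for antigen processing, -0.60 for other genes and -0.11 for receptor chains. Changes turned sign for Ifitm3 (-0.19), Gbp3 (-0.016), Parp14 (-0.13), Dtx3l (-0.17), Tap1 (-0.0048), Lgals3bp (-0.066), Ifnar1 (-0.15), Ifnar2 (-0.058) and Calr (-0.12).

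Keeping only genes above the median level left 34 members, of which 3 were at least 2-fold lower, with medians of -0.15 over members and -0.24 over effectors. An offset of 16 gave -0.38 for effectors. The mean of a gene's probe sets gave medians of -0.45 for sensors, -0.39 for effectors, -0.15 for ubiquitin-like genes, -0.33 for other genes and 0.15 for receptor chains, and turned Trim30a (0.054), Parp14 (-0.17), Dtx3l (-0.014), Canx (0.017) and Stat2 (0.023). Causes of these shifts were not tested. The run above the median level also fitted and adjusted over fewer genes.

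Without 1 replicate at a time, genes called ran from 0 to 27, members called from 0 to 1 (Oasl2, without Ncstn KO replicate 1), members lower at an unadjusted p under 0.05 from 6 to 16, against 0.923% to 5.69% of all genes, and members at least 2-fold lower from 3 to 7. Genes called were 23 without Ncstn KO replicate 1 and 27 without Ncstn KO replicate 2. These fits assume that the lone array of a group varies like the other group. Medians ran from -0.30 to -0.18 over members, -1.36 to -0.84 over the OAS family, -0.44 to -0.28 over effectors, -0.42 to -0.30 over sensors and -0.48 to -0.33 over other genes. The sign turned within these ranges for Ifit2 (-0.12 to 0.092), Ifitm3 (-0.011 to 0.030), Gbp2 (-0.16 to 0.053), Ifi47 (-0.096 to 0.011), Parp14 (-0.0038 to 0.13), Dtx3l (-0.0066 to 0.066), Psmb8 (-0.13 to 0.045), Psmb9 (-0.16 to 0.033), Cxcl10 (-0.14 to 0.69), Ifnar1 (-0.028 to 0.11), Ifng (-0.30 to 0.18), Canx (-0.095 to 0.0002), Stat2 (-0.33 to 0.096) and H2-Ab1 (-0.18 to 0.80).

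Replicate numbers are shared between the groups, and the deviations of same-numbered mice from their group means had a correlation of -0.242. Same-numbered mice were of opposite sex, and a sex difference alone lowers this value. It therefore cannot tell whether such mice shared anything beyond the number. With the replicate block 0 genes and 0 members were called, and 14 members were lower at an unadjusted p under 0.05, against 1.47% of all genes. The crossed pairing, added after seeing the data, equals the pairing by sex and called 0 genes, with 16 members lower at an unadjusted p under 0.05, against 2.68% of all genes.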
